A study of Mus musculus with 8 samples.

Results

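Chl1, the gene of the close homolog of L1, and 7 related genes of neural adhesion molecules of the immunoglobulin superfamily were examined in mouse lung mesenchymal cells after bleomycin injury. The others were L1cam, Nrcam and Nfasc of the L1 family, Ncam1 and Ncam2, and the contactin genes Cntn1 and Cntn4. The set was picked because Chl1 had the largest rise of all genes between the bleomycin and control arrays, and the other members were taken as its relatives. Differences between these groups are therefore given for the members as descriptions. No p-value is printed for a member, and passing a threshold is not taken as support. All 8 members were found among 22180 tested genes, each with 1 probe set annotated to that gene alone. No filter on low values was applied, so all 8 were kept.

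The bleomycin group was 4 samples from C57BL/6J mice given bleomycin, a DNA-damaging drug that injures the lung, through the trachea. The control group was 4 samples from C57BL/6J mice given phosphate-buffered saline by the same route. Mice were 11 weeks old and cells were taken on day 10 by flow cytometry as those negative for CD45, CD31 and EpCAM, which mark leukocytes, endothelium and epithelium. No further genotype or transgene is named for any sample, and whether each replicate was a separate mouse is not stated. A p-value given for another gene therefore reflects scatter among these samples only, and that scatter may be technical.

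These proteins carry immunoglobulin-like domains, mostly followed by fibronectin type III repeats, and bind one another or other surface proteins on neighbouring cells. L1-family proteins span the membrane and attach to the spectrin skeleton through ankyrins, NCAM exists in transmembrane and lipid-anchored forms, and contactins are held by a lipid anchor alone. They are best known from the nervous system, where they guide axons, bundle nerve fibres and organise the nodes and paranodes of myelinated axons. In lung they are mostly associated with nerves, Schwann cells and neuroendocrine cells.

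Of the 8 members, 7 had a start-site window in the RefSeq promoter table of GRCm38.p6, with 12 windows in all, and Ncam1 was the member without one. The 250 bases before the start are shown for Chl1 and Nrcam, the L1-family members with the largest differences between the groups, because they differ in base composition. Both are read 5′ to 3′ on the plus strand, at chr6:103510626-103510875 for Chl1 and at chr12:44328635-44328884 for Nrcam. Capitals mark CG dinucleotides.
Chl1: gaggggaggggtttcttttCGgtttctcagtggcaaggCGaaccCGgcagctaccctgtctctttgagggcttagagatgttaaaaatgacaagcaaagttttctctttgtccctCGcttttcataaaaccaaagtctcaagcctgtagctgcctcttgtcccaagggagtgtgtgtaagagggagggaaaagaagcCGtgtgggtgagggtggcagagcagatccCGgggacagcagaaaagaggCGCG
Nrcam: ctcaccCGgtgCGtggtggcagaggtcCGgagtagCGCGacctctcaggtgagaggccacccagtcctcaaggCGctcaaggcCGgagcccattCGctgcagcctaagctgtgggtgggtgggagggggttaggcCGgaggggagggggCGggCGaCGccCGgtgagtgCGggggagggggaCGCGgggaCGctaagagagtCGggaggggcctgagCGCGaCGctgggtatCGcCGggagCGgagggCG

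The Chl1 window held 8 CG dinucleotides and was 52.4% G or C, the same G and C share as the median of all 32851 windows of that length. The Nrcam window held 25 CG dinucleotides and was 72.4% G or C. The single Ncam2 window was as rich, with 32 CG dinucleotides and 75.2% G or C, and those of L1cam had 69.6% and 63.2%. The windows of Nfasc and of the contactins lay between 32.8% and 53.6%. Both strands were searched for 3 short motifs: the TATA-box core (TATAAA), the GC box (GGGCGG) and a loose form of the AP-1 site (TGANTCA). N stands for any base, so a match to TGANTCA need not be an AP-1 site. None was found in the Chl1 window. The GC box was found in the Nrcam window, with its first base 104 before the start, and it occurred in 32.7% of all windows. It was also found in windows of Nfasc, Ncam2 and L1cam. A TATA-box core was found in a Cntn1 window. The pattern TGANTCA was found in a Cntn4 window, where it read TGATTCA. The TATA-box core occurred in 12.4% and the pattern TGANTCA in 6.75% of all windows. With N as any base, that pattern overlaps itself because it reads alike on both strands. A match or its absence is a description of these letters alone.

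Signals are log2 values per probe set as deposited, and probe sets of different genes cannot be ranked against each other. To gauge the low end, 1105 olfactory receptor genes, which are mostly silent outside the nose, were used as a yardstick chosen after the data were seen. Their 95th percentile lay between 4.83 and 4.94 on the 8 arrays and their median between 2.55 and 2.71. Values below this percentile are called dim here.

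Chl1 was dim on all control arrays and bright on all bleomycin arrays. This L1-family protein promotes neurite growth and neuronal migration. Chl1 had 9.59, 9.07, 9.38 and 8.36 on bleomycin replicates 1 to 4, against 2.92, 2.96, 3.23 and 3.03 on control replicates 1 to 4. The groups were far apart, and bleomycin replicate 4 was the lowest of its group. The difference was 6.06 ± 0.22 (log2, bleomycin minus control, ± SE from limma), or 66.9-fold, with means of 9.10 ± 0.54 in bleomycin and 3.03 ± 0.14 in control samples (SD, n = 4 each). Because the control level was dim, the fold is less certain than the bleomycin level, which stood 4.23 log2 units above the 95th percentile of the olfactory receptor genes. In sorted bulk samples, more cells with Chl1 RNA and more Chl1 RNA per cell cannot be told apart.

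Nrcam, the neuronal cell adhesion molecule that helps cluster sodium channels at nodes of Ranvier, was well above the dim range in both groups. It had 10.27, 10.16, 10.23 and 10.06 on bleomycin replicates 1 to 4, against 8.14, 8.35, 8.04 and 7.99 on control replicates 1 to 4. All bleomycin values lay above all control values, and they ranged over only 0.205. The difference was 2.05 ± 0.10, or 4.13-fold, with means of 10.18 ± 0.09 in bleomycin and 8.13 ± 0.16 in control samples (SD, n = 4 each). It ranked 82 among the 22180 genes by size of rise. The control level was measurable, unlike that of Chl1.

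Nfasc encodes neurofascin, whose isoforms sit at the axon initial segment, at nodes and on the glial side of paranodes. It had 6.06, 6.25, 5.81 and 5.60 on bleomycin replicates 1 to 4, against 5.03, 5.38, 5.12 and 5.14 on control replicates 1 to 4. The groups did not overlap, though bleomycin replicate 4 was only slightly above control replicate 2. The means were 5.93 ± 0.28 in bleomycin and 5.17 ± 0.15 in control samples (SD, n = 4 each). The difference was 0.76 ± 0.14, or 1.70-fold, and the control values were just above the dim range. Glial and neuronal isoforms cannot be separated with 1 probe set.

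L1cam, the founding member of the family, lay at the edge of the dim range in both groups. It had 5.09, 4.89, 5.01 and 5.02 on bleomycin replicates 1 to 4, against 5.07, 5.08, 5.08 and 4.83 on control replicates 1 to 4. The groups overlapped throughout. The means were 5.001 ± 0.08 in bleomycin and 5.01 ± 0.12 in control samples (SD, n = 4 each). The difference was -0.01 ± 0.09, and its sign turned in 6 of 17 alternative fits. It turned with quantile normalization, where the difference was 0.06, and without control replicate 1, 2 or 3 or bleomycin replicate 2. It also turned with control replicates 1 and 2 both left out. The difference of -0.01 was smaller than its standard error.

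Ncam1, the neural cell adhesion molecule also known as CD56, had the widest spread among bleomycin arrays. It had 9.04, 8.42, 8.51 and 7.28 on bleomycin replicates 1 to 4, against 6.60, 6.56, 6.35 and 6.37 on control replicates 1 to 4. The groups did not overlap, and bleomycin replicate 4 lay closer to the controls than to bleomycin replicate 1. The means were 8.31 ± 0.74 in bleomycin and 6.47 ± 0.13 in control samples (SD, n = 4 each), a difference of 1.85 ± 0.30 or 3.60-fold. A further probe set annotated to Ncam1 together with another gene was not used.

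Ncam2, the relative of Ncam1 known from olfactory axons, was dim on every array. It had 3.42, 3.37, 3.22 and 3.33 on bleomycin replicates 1 to 4, against 3.11, 2.99, 3.08 and 3.05 on control replicates 1 to 4. The groups did not overlap, but the difference was only 0.28 ± 0.08, between means of 3.33 ± 0.09 in bleomycin and 3.06 ± 0.05 in control samples (SD, n = 4 each). Both means lie in the dim range.

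The contactins went the other way on average, with overlapping groups. Cntn1, which forms the axonal partner complex with Cntnap1 at paranodes, had 5.83, 6.44, 5.81 and 6.38 on bleomycin replicates 1 to 4, against 7.07, 6.47, 6.33 and 7.29 on control replicates 1 to 4. Control replicates 1 and 4 were high, control replicate 2 was just above the highest bleomycin value, and control replicate 3 lay inside the bleomycin range. The means were 6.11 ± 0.34 in bleomycin and 6.79 ± 0.46 in control samples (SD, n = 4 each), a difference of -0.68 ± 0.23.

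Cntn4, a contactin of olfactory and visual axons, had 5.41, 5.92, 5.64 and 6.23 on bleomycin replicates 1 to 4, against 6.44, 6.28, 6.16 and 6.10 on control replicates 1 to 4. Bleomycin replicate 4 lay inside the control range and the other bleomycin arrays lay below it. The means were 5.80 ± 0.35 in bleomycin and 6.24 ± 0.15 in control samples (SD, n = 4 each), a difference of -0.44 ± 0.16.

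**Figure D1:**
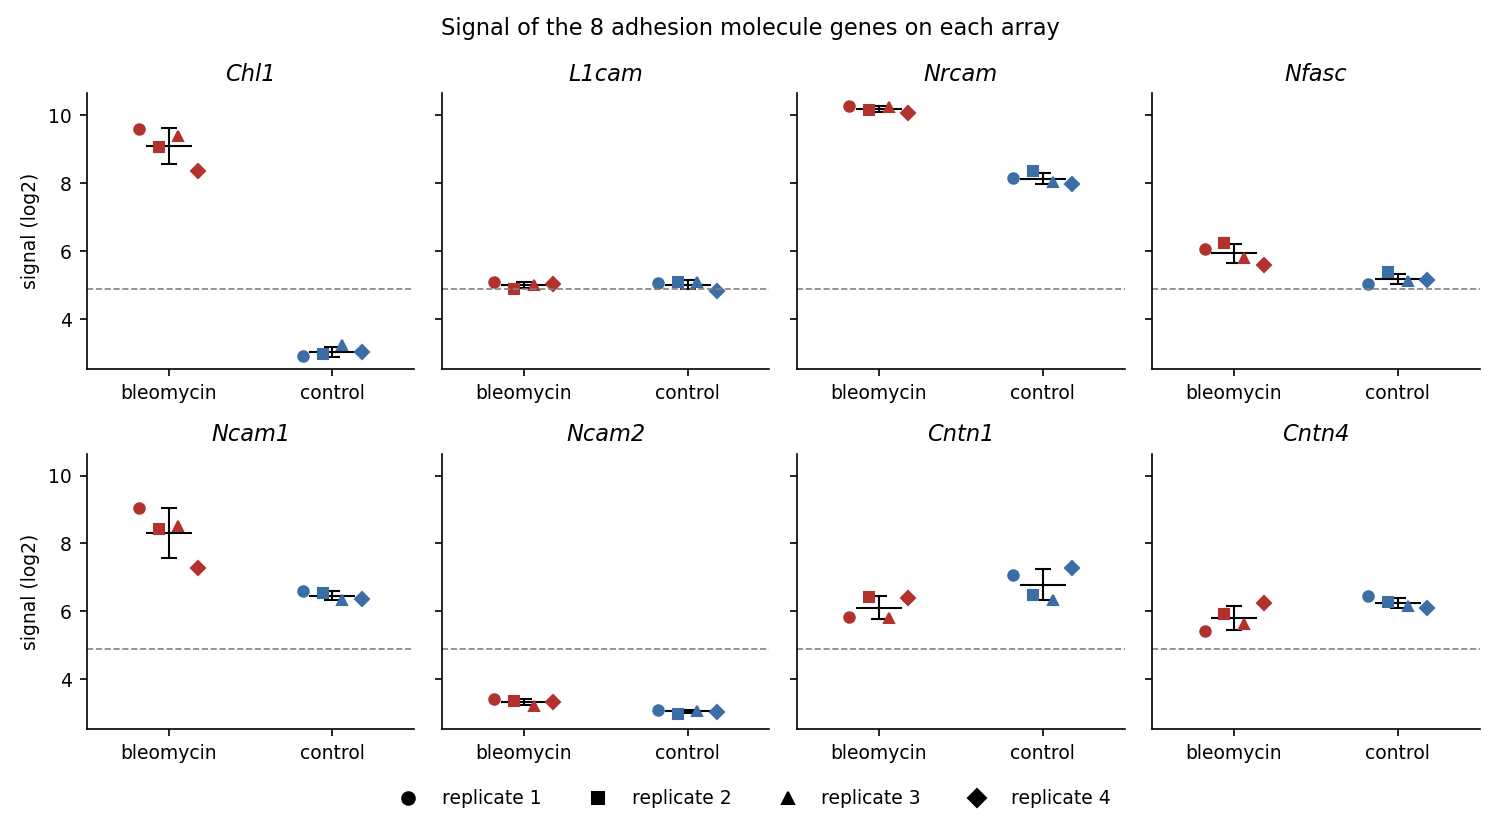
Signal (log2) of each of the 8 genes on the 4 bleomycin (red) and 4 control (blue) arrays, with marker shape for the replicate number and black bars for the mean ± SD. The dashed grey line is the mean over arrays of the 95th percentile of olfactory receptor genes, and Chl1 lies above it on every bleomycin array and below it on every control array.

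In the fit across all genes, Chl1, Nrcam, Ncam1, Nfasc and Ncam2 passed at a limma adjusted p under 0.05 with higher signal in bleomycin samples. That is 5 of 8 members, where 9.12% of all tested genes were higher and 8.24% lower. No member passed as lower. The same 5 members had groups that did not overlap, where 12.5% of all tested genes had bleomycin values above every control value and 23.5% had groups apart in either direction. The set was chosen from this contrast, so nothing is read from these counts. Chl1, Nrcam and Ncam1 were more than 2-fold higher, where 1.98% of tested genes passed and rose by that much. Chl1 and Nrcam were more than 4-fold higher, where the share was 0.406%. The median difference was 0.52 over the 8 members and 0.03 over all tested genes.

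The call of Ncam2 was the least stable. It held in 4 of 16 alternative fits and was lost in 7 of the 8 that left out an array. With control replicates 1 and 2 left out, 4 members passed as higher. The calls of Chl1, Nrcam, Ncam1 and Nfasc held in all 18 alternative fits. All these fits reuse the arrays from which the set was chosen. They describe sensitivity to the processing and lend the members no support. The contactins passed as lower in a few fits, Cntn1 at -0.83 without control replicate 3 and Cntn4 at -0.59 without bleomycin replicate 4.

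Bleomycin replicate 4 was the array nearest to the control mean for Chl1, Nrcam, Nfasc, Ncam1 and Cntn4. It stood 5.33 above the control mean for Chl1 and 1.93 for Nrcam, against 0.43 for Nfasc and 0.82 for Ncam1, and at -0.01 for Cntn4. As a share of the mean difference, this was 0.879 for Chl1, 0.943 for Nrcam, 0.569 for Nfasc and 0.441 for Ncam1. The same array was nearest to the controls for 76.6% of the 722 genes that passed with more than a 2-fold difference. Without it, Ncam1 differed by 2.19 and Chl1 by 6.31. The members therefore differed in how uniformly they were raised across bleomycin arrays, with Nrcam the most even and Ncam1 the least.

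Replicates 1 and 2 also stood apart from replicates 3 and 4 in both groups, along the second principal component of all genes, which held 11.1% of the variance. The labels name no batch. Within replicates 1 and 2, the bleomycin mean of Chl1 minus its control mean was 6.39, and within replicates 3 and 4 it was 5.74. The same differences were 1.97 and 2.13 for Nrcam, 2.15 and 1.54 for Ncam1, and 0.95 and 0.58 for Nfasc. Cntn4 differed by -0.70 in replicates 1 and 2 and by -0.19 in replicates 3 and 4, whereas Cntn1 differed by -0.64 and -0.71. With this split as a block, the members that passed were the same 5.

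**Figure D2:**
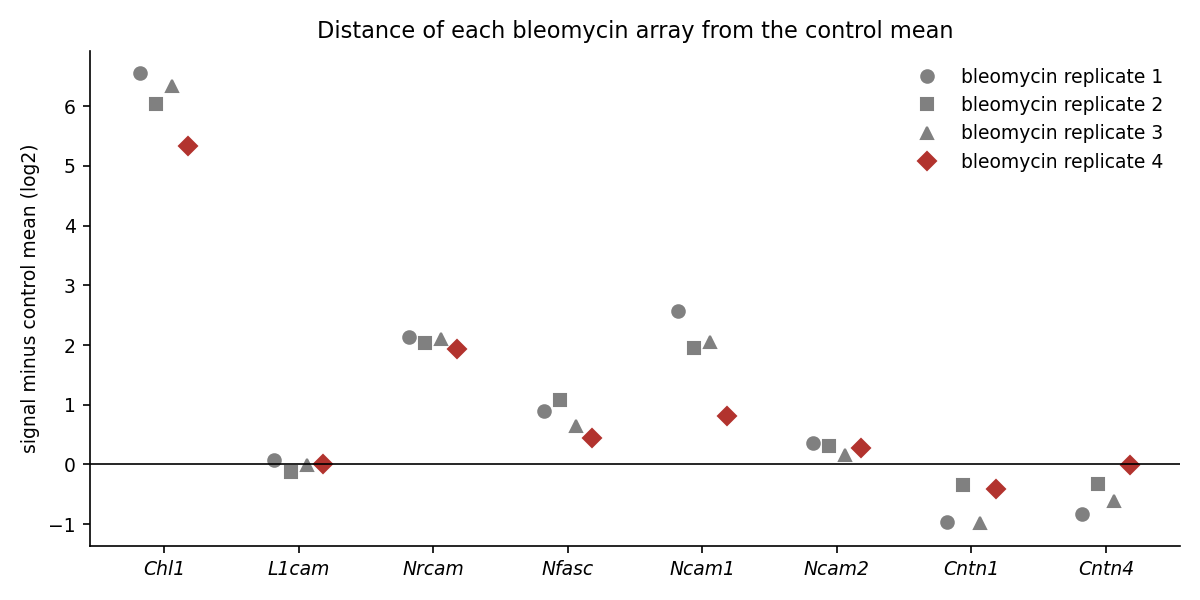
Signal of each bleomycin array minus the mean of the 4 control arrays (log2) for the 8 genes, with bleomycin replicate 4 in red and the other bleomycin replicates in grey. Replicate 4 is at 0.82 for Ncam1, where the other bleomycin arrays are between 1.96 and 2.57, and at 1.93 for Nrcam, close to the rest.

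Chl1 and Cntn4 are both on chromosome 6, in a run of contactin genes. In the RefSeq gene table of GRCm38.p6 the protein-coding neighbours before Chl1 are Ppp4r2, Pdzrn3 and Cntn3, and those after it are Cntn6, Cntn4 and Il5ra. The contactin genes beside Chl1 stayed dim, with Cntn3 at 3.32 ± 0.18 in bleomycin and 3.28 ± 0.13 in control samples and Cntn6 at 3.93 ± 0.38 and 3.88 ± 0.43 (SD, n = 4 each). Neither passed (limma adjusted p of 0.834 and 0.922). Il5ra, an interleukin receptor gene, and Ppp4r2, a phosphatase subunit gene, did not pass either (limma adjusted p of 0.999 and 0.85). Pdzrn3, which encodes a ubiquitin ligase with PDZ domains, was higher by 0.99 ± 0.10 (limma adjusted p = 0.00019). Its means were 9.60 ± 0.13 in bleomycin and 8.61 ± 0.14 in control samples (SD, n = 4 each).

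The tested genes whose profile over the 8 arrays was most like that of Chl1 were Frzb, Rgs16, Tfap2a, Thbs4 and Tnfsf18. Likeness was the root mean square difference of the mean-centred profiles, which was 0.891, 0.923, 0.985, 0.997 and 1.01 for these genes, against a median of 3.04 over all genes. They are also the genes with the next largest rises, and this measure follows the size of the difference. Frzb is a secreted Wnt antagonist, Rgs16 a regulator of G protein signalling, Tfap2a a transcription factor, Thbs4 a thrombospondin and Tnfsf18 a ligand of the TNF family. On bleomycin replicate 4, Frzb, Rgs16, Tfap2a and Thbs4 had their lowest bleomycin value, as Chl1 did, whereas Tnfsf18 was lowest on replicate 2.

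Other neural adhesion genes of the immunoglobulin superfamily moved in both directions. Of 35 measured genes of this kind 7 were higher and 3 lower, that is 20% and 8.57%, against 9.12% and 8.24% of all tested genes. The median difference of the list was 0.04, against 0.03 over all genes, and it was -0.01 with median centring. Thy1, a lipid-anchored protein of neurons and many fibroblasts, rose by 1.34 ± 0.25 (limma adjusted p = 0.00495). Its means were 7.18 ± 0.60 in bleomycin and 5.84 ± 0.21 in control samples (SD, n = 4 each). Mdga1, which masks neuroligins, rose by 1.28 ± 0.11 and Kirrel3, a synaptic adhesion protein, by 1.23 ± 0.13. Sdk2, the retinal adhesion protein sidekick, rose by 0.79 ± 0.12. For Mdga1, Kirrel3 and Sdk2 the limma adjusted p did not exceed 0.00177.

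The IgLON genes, which encode lipid-anchored neuronal adhesion molecules, split in both directions. Lsamp fell by 0.91 ± 0.14 and Negr1 by 0.67 ± 0.15 (limma adjusted p of 0.00176 and 0.0131). Negr1 did not pass without control replicates 1 and 2 (limma adjusted p = 0.0815). Iglon5 rose by 0.71 ± 0.10 (limma adjusted p = 0.00107), and this call held in all 18 alternative fits. Ntm rose by 0.28 ± 0.09 (limma adjusted p = 0.0446), but its call was lost in 11 of 17 alternative fits, and Opcml did not pass at -0.18 ± 0.17. Ntm was dim on all control arrays. Cadm1, a synaptic adhesion molecule that epithelium also expresses, fell by 0.997 ± 0.188 (limma adjusted p = 0.00496). Its means were 5.86 ± 0.22 in bleomycin and 6.86 ± 0.40 in control samples (SD, n = 4 each). The contactins outside the set did not pass, among them Cntn2 at 0.04 ± 0.08 and Cntn5 at -0.07 ± 0.16.

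The proteins that bind, anchor or cleave these molecules were considered as a further list. Of 44 genes 8 were higher and 4 lower, that is 18.2% and 9.09%, against 9.12% and 8.24% of all tested genes. The median difference of the list was 0.07. With median centring 5 were higher and 5 lower. Integrins can bind L1-family proteins, and Itga5, the fibronectin receptor chain, rose by 1.49 ± 0.17 (limma adjusted p = 0.000261). Its means were 10.02 ± 0.32 in bleomycin and 8.53 ± 0.22 in control samples (SD, n = 4 each). Gdnf, a growth factor that can signal through NCAM, rose by 0.93 ± 0.18 (limma adjusted p = 0.00533). It did not pass without control replicates 1 and 2 (limma adjusted p = 0.0613). The control values of Gdnf were dim, at 4.11 to 4.57.

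Proteases that shed L1-family proteins or NCAM were also on the list. Bace1, which cuts Chl1, rose by 0.59 ± 0.11 (limma adjusted p = 0.00458), but the mean of both its probe sets differed by 0.21 and did not pass. Adam8, another protease that cuts Chl1, rose by 0.36 ± 0.11 (limma adjusted p = 0.0416), and its call was lost in 7 of the 8 fits that left out an array and with median centring. Adam10, which cuts L1cam, rose by 0.36 ± 0.09 (limma adjusted p = 0.0164). It did not pass without control replicate 3 or without control replicates 1 and 2, and Adam17 did not pass at 0.07 ± 0.09. Sema3a, a guidance cue whose receptor complex includes L1-family proteins, rose by 0.58 ± 0.18 with overlapping groups (limma adjusted p = 0.0489). Its call was lost in 6 of the 8 fits that left out an array, without control replicate 2, 3 or 4 or bleomycin replicate 1, 2 or 3, and with median centring. Ezrin and radixin, ERM proteins that link membrane proteins to actin, were lower. Ezr fell by 0.91 ± 0.15 and Rdx by 0.39 ± 0.08 (limma adjusted p of 0.00203 and 0.00773). Rdx did not pass without control replicates 1 and 2 (limma adjusted p = 0.0655). Msn, a further ERM gene on the list, went the other way, at 0.33 ± 0.11. Its groups did not overlap, but it did not pass (limma adjusted p = 0.0588). Fyn, a Src-family kinase that acts below NCAM and contactins, fell by 0.72 ± 0.13, and vitronectin, Vtn, by 0.97 ± 0.20 (limma adjusted p of 0.00313 and 0.00814). Vtn differed by -0.60 without control replicates 1 and 2 and did not pass (limma adjusted p = 0.0504).

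The ankyrins Ank2 and Ank3, which bind the tails of Nrcam and neurofascin, did not pass, at -0.17 ± 0.11 and 0.01 ± 0.25. Cntnap1, the partner of Cntn1, did not pass at 0.03 ± 0.12. St8sia2, an enzyme that adds polysialic acid to NCAM, was at -0.53 ± 0.19 and did not pass (limma adjusted p = 0.0749).

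**Figure D3:**
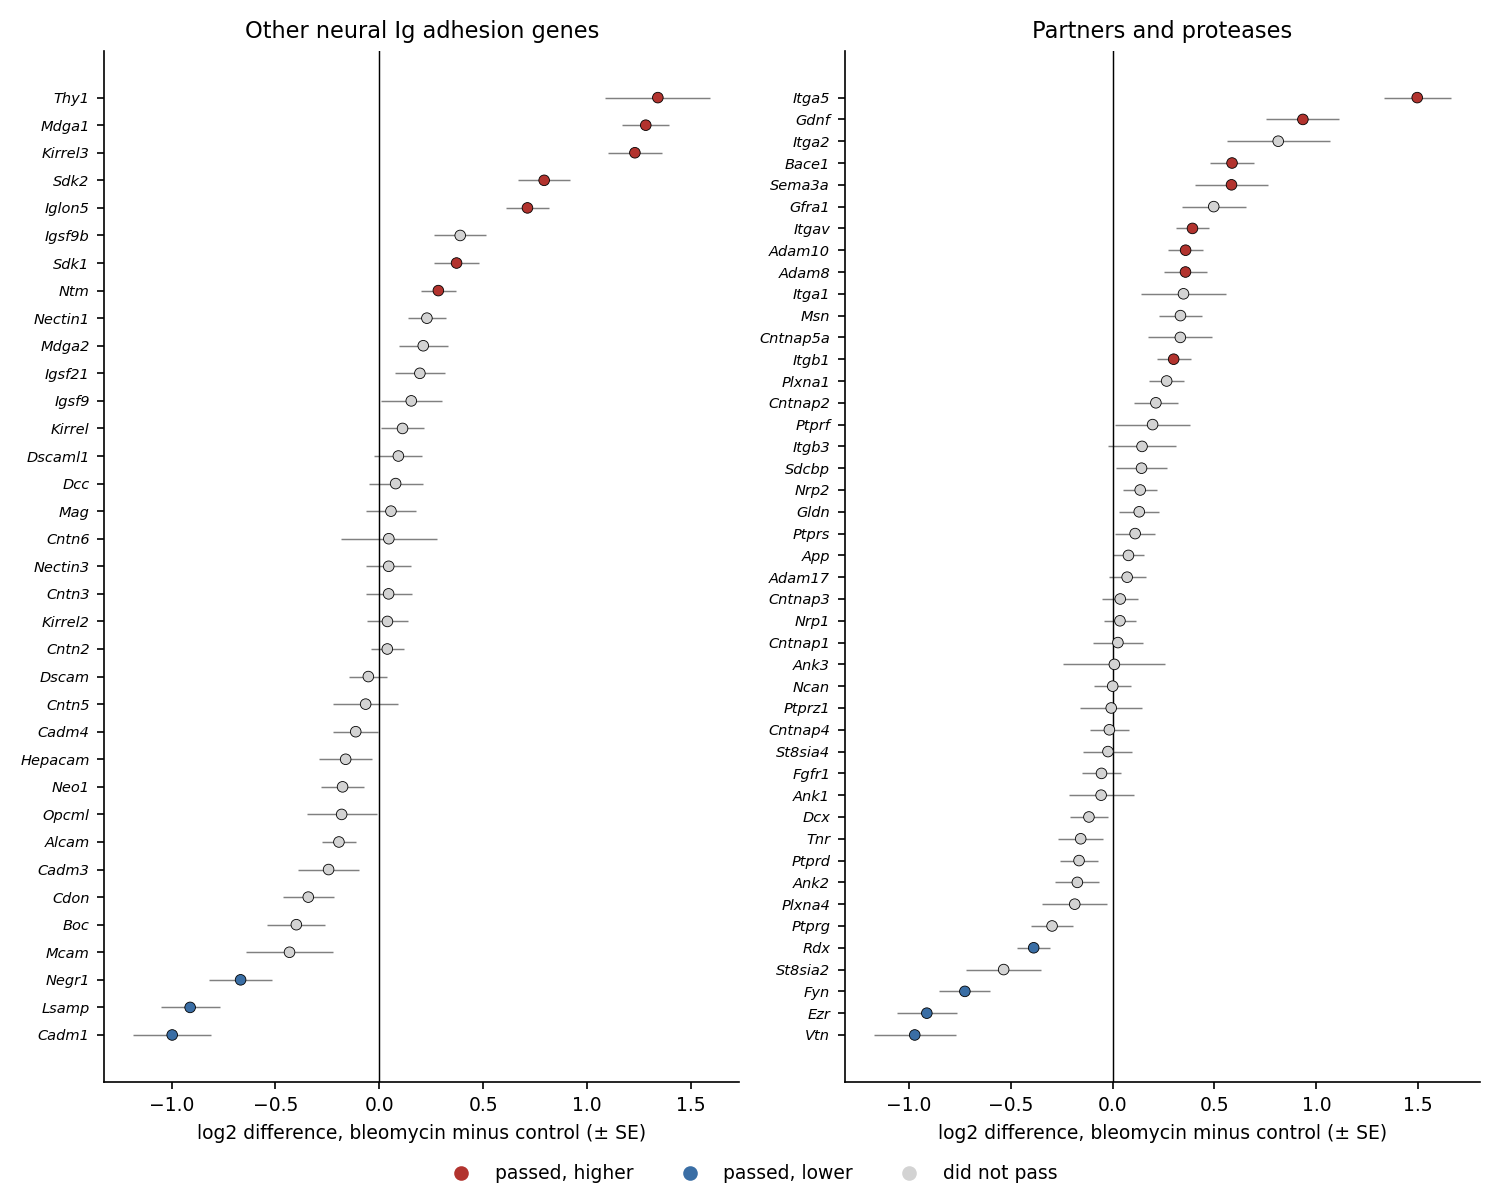
Log2 difference, bleomycin minus control, ± SE from limma for other neural immunoglobulin adhesion genes (left) and for partners and proteases (right). Red points passed as higher, blue points passed as lower and grey points did not pass, and most genes of both lists lie near 0.

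Marker genes of the cells in which these molecules are best known were examined next. Of 18 measured Schwann cell and glia markers 3 were higher and 1 lower, that is 16.7% and 5.56%. Over all tested genes these shares were 9.12% and 8.24%. The median difference of the list was 0.0015. The mean signal of that list lay between 5.41 and 5.51 on bleomycin arrays and between 5.33 and 5.45 on control arrays. Sox10, the transcription factor that defines Schwann cells, differed by 0.0035 ± 0.10, with means of 5.24 in both groups. Cdh19 was dim throughout, at 2.46 ± 0.16 in bleomycin and 2.50 ± 0.16 in control samples (SD, n = 4 each). The calcium-binding protein gene S100b rose by 1.18 ± 0.18 and the neurotrophin receptor gene Ngfr by 0.75 ± 0.12, while the sodium channel gene Scn7a fell by 0.66 ± 0.10 (limma adjusted p at most 0.00185). The control level of S100b was dim.

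Of 15 neuronal and neuroendocrine markers 2 were higher and 1 lower, that is 13.3% and 6.67%, against 9.12% and 8.24% of all tested genes. Of these markers 7 were dim on all arrays. The mean signal of the list lay between 4.70 and 4.81 on bleomycin arrays and between 4.61 and 4.65 on control arrays, so every bleomycin array was higher. The median difference of the list was 0.12, against 0.03 over all genes, and the part of these cells in the higher signal of Chl1, Nrcam, Nfasc and Ncam1 was not tested. The ubiquitin hydrolase gene Uchl1 rose by 1.26 ± 0.15 and the tubulin gene Tubb3 by 1.14 ± 0.17, and the tubulin-binding protein gene Stmn2 fell by 1.11 ± 0.21 (limma adjusted p at most 0.00534). Tubb3 was dim on control replicates 2, 3 and 4. Of 10 mesothelial markers none was higher and 1, Upk1b, was lower, at -0.96 ± 0.16 (limma adjusted p = 0.00234). That 1 gene is 10% of the list, where 8.24% of all tested genes were lower. The mean signal of the mesothelial list lay between 6.55 and 6.92 on bleomycin arrays and between 6.79 and 7.09 on control arrays.

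The gene of each sorting marker was examined with the marker list of its cell type. Epcam averaged 4.43 ± 0.37 in bleomycin and 4.99 ± 0.23 in control samples, Pecam1 8.56 ± 0.29 in bleomycin and 9.87 ± 0.55 in control samples, and Ptprc 6.22 ± 0.04 in bleomycin and 6.69 ± 0.34 in control samples (SD, n = 4 each). Pecam1 passed as lower (limma adjusted p = 0.00486). Epcam and Ptprc had overlapping groups and did not pass (limma adjusted p of 0.0547 and 0.0529). Epcam was dim on all bleomycin arrays and on control replicate 4, whereas Pecam1 and Ptprc were above the dim range on every array. Of 16 epithelial markers 12, or 75%, were lower and none higher, against 8.24% and 9.12% of all tested genes. The list means were 6.47 to 7.29 on bleomycin arrays and 8.04 to 8.83 on control arrays. Sftpa1, Slc34a2 and Cyp2f2 differed most, at -2.69, -2.69 and -2.45. Of 13 endothelial markers 9, or 69.2%, were lower and none higher. The list means were 7.29 to 7.68 on bleomycin arrays and 7.99 to 9.03 on control arrays. Tek, Lyve1 and Kdr differed by -1.69, -1.57 and -1.42, and Lyve1 did not pass without control replicates 1 and 2 (limma adjusted p = 0.0672). In both lists control replicates 1 and 2 stood above control replicates 3 and 4. The part of these cells in the lower signal of Cntn1 and Cntn4 was not tested, and without control replicates 1 and 2 these genes differed by -0.70 and -0.33.

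Of 15 leukocyte markers 5 were higher and 2 lower, that is 33.3% and 13.3%, against 9.12% and 8.24% of all tested genes. The list means were 5.65 to 5.88 on bleomycin arrays and 5.67 to 5.93 on control arrays. C1qa rose by 1.02, Cd68 by 0.70, Adgre1 by 0.50, Itgam by 0.47 and Tyrobp by 0.35. Cd79a and Gzma fell by 0.84 and 0.82, so the list means average over moves in both directions. Gzma was dim on every array except control replicate 1. Of 17 general mesenchymal markers, which fit the labelled cell type and were above the dim range on every array, 9 were higher and 4 lower. These are 52.9% and 23.5% of that list. Cspg4 and Des rose by 1.37 and 1.33, and Pi16 fell by 0.89. Without control replicates 1 and 2, Gzma and Pi16 did not pass (limma adjusted p of 0.0602 and 0.0561). All 10 genes of fibrotic fibroblasts were higher, where 9.12% of all tested genes were. The list means were 9.14 to 10.04 on bleomycin arrays and 6.96 to 7.10 on control arrays. Grem1, Fst and Tnc led them, at 3.77, 3.75 and 3.35. Bleomycin replicate 4 was the lowest bleomycin array in this list, as it was for Chl1 and Ncam1. Changes of the mesenchymal makeup and changes within cells were not tested apart.

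**Figure D4:**
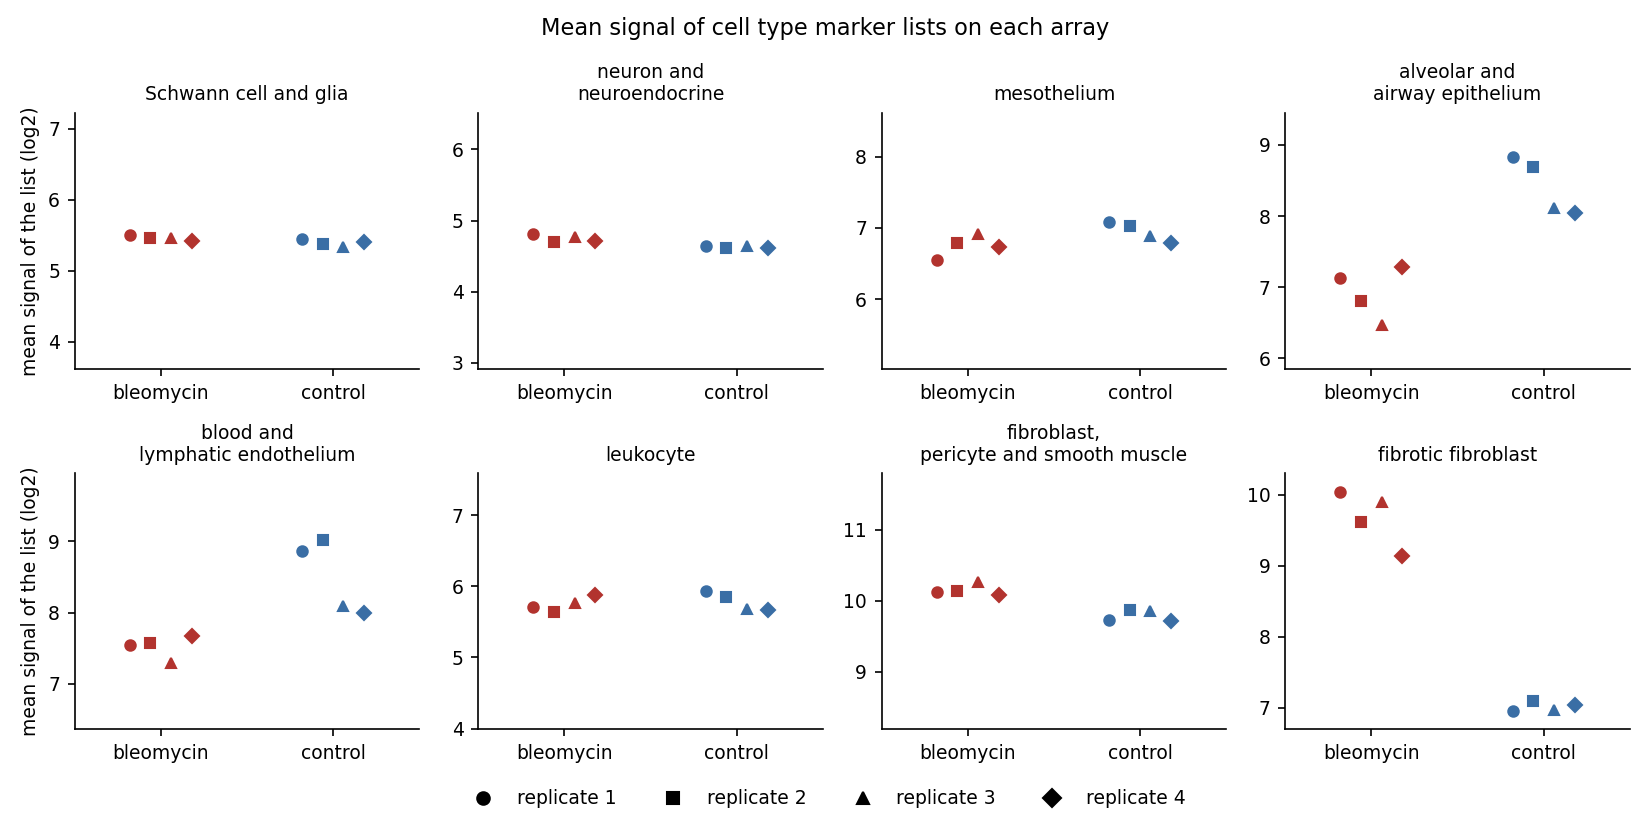
Mean signal (log2) of 8 cell type marker lists on the 4 bleomycin (red) and 4 control (blue) arrays, with marker shape for the replicate number and every panel spanning the same number of log2 units. Epithelial and endothelial lists are lower and the fibrotic fibroblast list is higher on bleomycin arrays, and the Schwann cell list differs little.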

How the data were processed

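RNA of sorted lung mesenchymal cells was measured on 8 one-colour arrays, from 100 ng of total RNA per the labels' protocols. The authors deposited 1 value per probe set and array, taken to be log2 signal because values ran from 0.24 to 13.58. For their background correction, summarisation and normalization, the method is not given in the sources used here. Arrays give no read depth, and their number limits the precision.

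Of 41345 rows, 23521 had 1 gene in the platform annotation, 1814 had several and 16010 had none. The brightest single-gene row stood for each of 22180 genes, and values were used as deposited. Groups came from the titles. No pair of arrays held identical values. The group difference of each gene was tested with limma 3.58.1 in R 4.3.3 (lmFit, then eBayes). P-values were two-sided and adjusted over all genes by the Benjamini-Hochberg method, with a threshold of 0.05. "Higher", "lower", "rose" and "fell" with a count mean past this threshold. On simulated data with 200 changed genes of 22180, 85.1% of 2-fold and 98.5% of 4-fold changes were recovered, and 3.8% of calls were false. In the real arrays 17.4% of tested genes passed, a far larger share than was changed in the simulation. The simulated rates therefore need not hold for these arrays.

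The members and lists were chosen with earlier results of these data known. Besides the members, named genes are up to 4 passing genes per direction from both companion lists, the neighbours of Chl1, the 5 genes most like it, and the leading markers. All passing leukocyte markers are also named. Genes named beyond these, such as Cntn2, Cntn5, Iglon5, Ntm, Opcml, Adam8, Adam10, Adam17, Msn, Ank2, Ank3, Cntnap1, St8sia2, Sox10 and Cdh19, were chosen for their role after values were seen. Alternatives were other scalings, filters on dim genes, the mean of probe sets, other variance models, array weights, the replicate number as a block, and each array left out. After seeing the data, a fit without control replicates 1 and 2 was added, and another that blocked on the split of replicates 1 and 2 from 3 and 4. Figures used matplotlib 3.10.9.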

Additional observations from a re-analysis of the deposited data

Results flagged for a closer look

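Among 114 groups of 4 arrays over the named genes, 5 held 1 array far from the rest by Dixon's test, and chance flags about 1 in 20. Control replicate 4 was such an array for 3 genes. L1cam was 4.83 there against 5.07 or more on the other controls. Pdzrn3 was 8.40 there, with the nearest other control at 8.67, and S100b was 4.42, with the nearest at 3.66. Bace1 was 9.16 on bleomycin replicate 3, with the nearest other array at 8.95. Pi16 was 9.11 on bleomycin replicate 1, with the nearest other array at 9.89.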

How the results depend on the processing

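Across 141 alternative values, the 8 members' differences moved by less than the spread between replicates, and none that had passed changed sign. Most of these values could not have moved further, so little is read from this. With 1 probe set per member, dim-gene filters, the mean of probe sets, trended eBayes and both block fits return the same difference. Leaving out 1 of 4 arrays can only shift a group mean by less than the spread between replicates. Chl1 ranged from 5.90 to 6.31, Nrcam from 1.998 to 2.16, Ncam1 from 1.61 to 2.19 and Nfasc from 0.66 to 0.87. Ncam2 passed in 4 of 16 alternatives. Members that passed as lower numbered 0 with all genes and 1, Cntn1, with the dimmest 30% or 50% of genes left out, where fewer genes are tested. Leaving out 1 array gave between 0 and 1. Without control replicates 1 and 2, 1205 genes were higher and 992 lower, with fewer samples in the fit, against 2022 and 1828 in all samples. Median centring gave 1623 higher and 2314 lower. Other neural adhesion genes that were lower numbered 5, not 3, with the dimmest 50% left out or a trended and robust eBayes. Partner genes that were higher numbered 5, not 8, with median centring, and between 5 and 9 with 1 array left out. Those that were lower numbered 2, not 4, without control replicates 1 and 2. The cause of these moves, other than fewer genes or samples, was not tested. With the replicate number as a block, 1937 genes were higher and 1838 lower, and Ncam2 lost its call. Same-numbered arrays correlated at 0.06 to 0.13 in their deviations, and not every pair was over 0.1, so the numbers were not taken to pair samples. Replicates 1 and 2 did stand apart from 3 and 4 in both groups, and with that split as a block 2293 genes were higher and 2168 lower. Of 870 values of 49 other named genes, 15 lost a call, 5 gained one and none reversed. Among the members, dim signal limits Ncam2, L1cam and the control level of Chl1. It also limits the control levels of other named genes, among them Gdnf, S100b and Ntm.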
